A study of Mus musculus with 60 samples.

Results

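The Mir302 cluster consists of Mir302a, Mir302b, Mir302c and Mir302d, microRNA genes of the early embryo that lie side by side. The genes were selected on their signals, because their fall with retinoic acid against DMSO had been seen in these data, and their probe sets were taken by annotation to exactly these symbols. There were 4 of them, 1 per gene, among 21789 probe sets with a single gene symbol. Expression had been measured on 60 Affymetrix mouse gene arrays, 3 in each of 20 groups, with RNA of R1 cells, an established mouse embryonic stem cell line. The cells came off a feeder layer, were depleted of feeders, and were exposed for 6 h as attached undifferentiated cells to a compound in 0.1% DMSO or to DMSO alone, the control. The labels class each compound as a teratogen or a non-teratogen, and set its concentration at the IC10 (the concentration at which viability is lowered slightly), at 1 mM or at the limit of solubility.

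The 10 teratogens were All trans retinoic acid (0.024 mM), VPA (valproic acid, 1 mM), (+/-)-Thalidomide (0.35 mM), Dexamethazone (0.1 mM), methotrexate (0.028 µM), 5-azacytidine, and at 1 mM (-)-d-penicillamine, dimethadione, fluconazole and topiramate. The labels give the 5-azacytidine dose as 0.23 µM in one field and 23 µM in another, and it is not settled here. The 9 non-teratogens were loratadine (0.043 mM), sulfasalazine (1 mM), Glybenclamide (0.37 mM), clozapine (0.028 mM), metoclopramide (0.17 mM), ondansetron (0.054 mM), and at 1 mM chlorthalidone, hydrochlorothiazide and paracetamol. All groups are of a single cell line, and the labels do not say that the 3 arrays of a group came from separate cultures. The p-values of single compounds given here therefore measure the spread between these arrays, which may be technical. Those of the comparison of the classes measure the spread between compounds.

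MicroRNAs are cut in a pair of steps from a longer transcript, by Drosha with Dgcr8 in the nucleus and by Dicer1 in the cytoplasm, and the mature strand guides an Argonaute protein to target messages. Targets pair mainly with the seed, the bases near the 5′ end of the mature strand. The Mir302 genes and Mir367 are made from a shared transcript, known in embryonic stem cells and more abundant in the epiblast. The seed that Mir302 strands, but not Mir367, share with the Mir290 cluster is known for promoting the rapid cell cycle of stem cells and for dampening inhibitors of that cycle. The array reads labelled cDNA of total RNA purified on spin columns, which recover small RNAs poorly. Its Mir302 probe sets thus cannot tell the long transcript from the free hairpin, and the mature microRNAs were not measured separately.

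The hairpins are shown because the 4 probe sets read transcripts that carry them and because they hold nearly the same 3′ arm. All 4 matched the RefSeq sequence table of build GRCm38.p6. They lie on chromosome 3, plus strand, in the order Mir302b (chr3:127545228-127545301), Mir302c (chr3:127545363-127545430), Mir302a (chr3:127545496-127545564) and Mir302d (chr3:127545624-127545689). The 4 hairpins span 462 bases, and with Mir367 (chr3:127545733-127545807) the cluster spans 580 bases. It lies within Larp7, a gene for a partner of the 7SK RNA, which is transcribed from the opposite strand. Capitals mark AAGUGCU, which each of the 4 hairpins holds:
Mir302b: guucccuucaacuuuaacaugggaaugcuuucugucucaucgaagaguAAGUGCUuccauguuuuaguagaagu
Mir302c: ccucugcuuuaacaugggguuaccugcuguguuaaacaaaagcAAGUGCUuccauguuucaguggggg
Mir302a: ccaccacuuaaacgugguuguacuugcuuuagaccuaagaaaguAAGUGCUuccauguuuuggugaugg
Mir302d: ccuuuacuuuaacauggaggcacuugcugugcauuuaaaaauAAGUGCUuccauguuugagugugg

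The mature 3′ strands are shown to compare seeds with those of related microRNAs. Capitals mark bases 2 to 8, the seed. The table holds the mature 3′ strand of 3 members, and miR-302a-3p is named only:
miR-302b-3p: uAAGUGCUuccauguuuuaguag
miR-302d-3p: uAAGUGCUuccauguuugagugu
miR-302c-3p: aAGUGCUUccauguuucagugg
miR-294-3p: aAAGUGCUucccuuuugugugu
miR-367-3p: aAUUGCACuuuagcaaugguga
miR-17-5p: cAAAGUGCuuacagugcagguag
miR-20a-5p: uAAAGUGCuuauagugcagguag
miR-106a-5p: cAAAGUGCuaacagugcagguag
Of 1738 mature sequences in the table, 5 carry the seed AAGUGCU, namely miR-302b, miR-302d and the Mir290 cluster strands miR-291a, miR-294 and miR-295. The listed miR-302c-3p starts 1 base further along, so its seed reads AGUGCUU. The seed AAAGUGC, shifted by 1 base the other way, occurs in 7 mature sequences, those of Mir17, Mir20a, Mir20b, Mir93, Mir106a and Mir106b among them. Mir367 is part of the same transcript but has an unrelated seed. Genes of the Mir290 cluster were not analysed here.

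The deposited values are log2 signals, and the median signal of an array lay between 7.58 and 7.79. The stem cell label was checked first. In DMSO the stem cell factor Pou5f1 had signals of 12.87 to 12.88, Nanog 12.61 to 12.65 and Sox2 12.40 to 12.44. Of the 10 feeder fibroblast markers Lum was lowest, at 4.40 to 4.56 in DMSO. Col1a1, a collagen gene of fibroblasts, had 10.04 to 10.14, and Col1a2, Thy1 and S100a4 averaged 9.62, 8.94 and 8.61. Most of that list lay above 8.09, the median level of the probe sets tested. Dcn and Postn lay below it, at 7.25 and 7.03, and Col3a1 and Twist2 just above it, at 8.27 each. Some feeder markers thus had signal, and the share of feeder RNA was not measured. One array stood apart for the Mir302 genes: Dexamethazone replicate 3 had an interquartile range at the low end of the series and higher Mir302 signals than its partners. It is 1 of 8 arrays, loratadine replicate 1 among them, whose title carries a letter b, which the labels do not explain. Results that rest on this Dexamethazone array are given with and without it. With 3 arrays in a group, the precision is set by that number.

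In DMSO, Mir302b had log2 signals of 5.83, 5.64 and 5.87 on the 3 arrays. Mir302c had 6.30, 6.10 and 6.48, and Mir302a had 6.56, 6.43 and 6.77. Mir302d had 7.22, 7.06 and 7.30. All 4 lay in the lower part of the array, with mean levels over the series at percentiles 13.5 to 33.6 of the probe sets tested. A difference between probe sets also reflects how well each binds, so their levels are not set against each other.

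Because the members were chosen by their fall with retinoic acid, all their values against DMSO are given as a description, without a test. All comparisons with DMSO share the same 3 DMSO arrays. With retinoic acid, the ligand of nuclear receptors that pattern the embryo, Mir302b had signals of 4.64, 4.87 and 4.68. Mir302c had 4.94, 4.86 and 5.09, and Mir302a had 5.30, 5.47 and 5.58. Mir302d had 5.93, 5.96 and 6.24. Every one of these arrays lay below every DMSO array for its gene. The log2 differences to DMSO were -1.05 ± 0.152 (SE, n = 3 arrays per group) for Mir302b, -1.33 ± 0.175 for Mir302c, -1.13 ± 0.196 for Mir302a and -1.15 ± 0.114 for Mir302d, which leaves 0.484, 0.397, 0.456 and 0.452 of the DMSO signal.

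VPA, an antiepileptic drug that inhibits histone deacetylases, gave signals of about the same height. Mir302b had 4.80, 4.55 and 4.79 and Mir302c had 4.89, 5.39 and 5.37. Mir302a had 5.50, 5.49 and 5.55 and Mir302d had 6.17, 6.27 and 6.14. All 3 VPA arrays lay below all 3 DMSO arrays for every member, and they overlapped the retinoic acid arrays for each of the 4 genes. The log2 differences to DMSO were -1.06 ± 0.152 (SE), -1.08 ± 0.175, -1.07 ± 0.196 and -0.996 ± 0.114 for Mir302b, Mir302c, Mir302a and Mir302d, with folds of 0.478, 0.474, 0.476 and 0.501. With VPA and with retinoic acid the Mir302b signals lay near those of Lum in DMSO (4.40 to 4.56), at the bottom of the scale. Log2 differences can be compressed there, which limits the Mir302b folds and the comparison of these compounds for that gene.

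**Figure D1:**
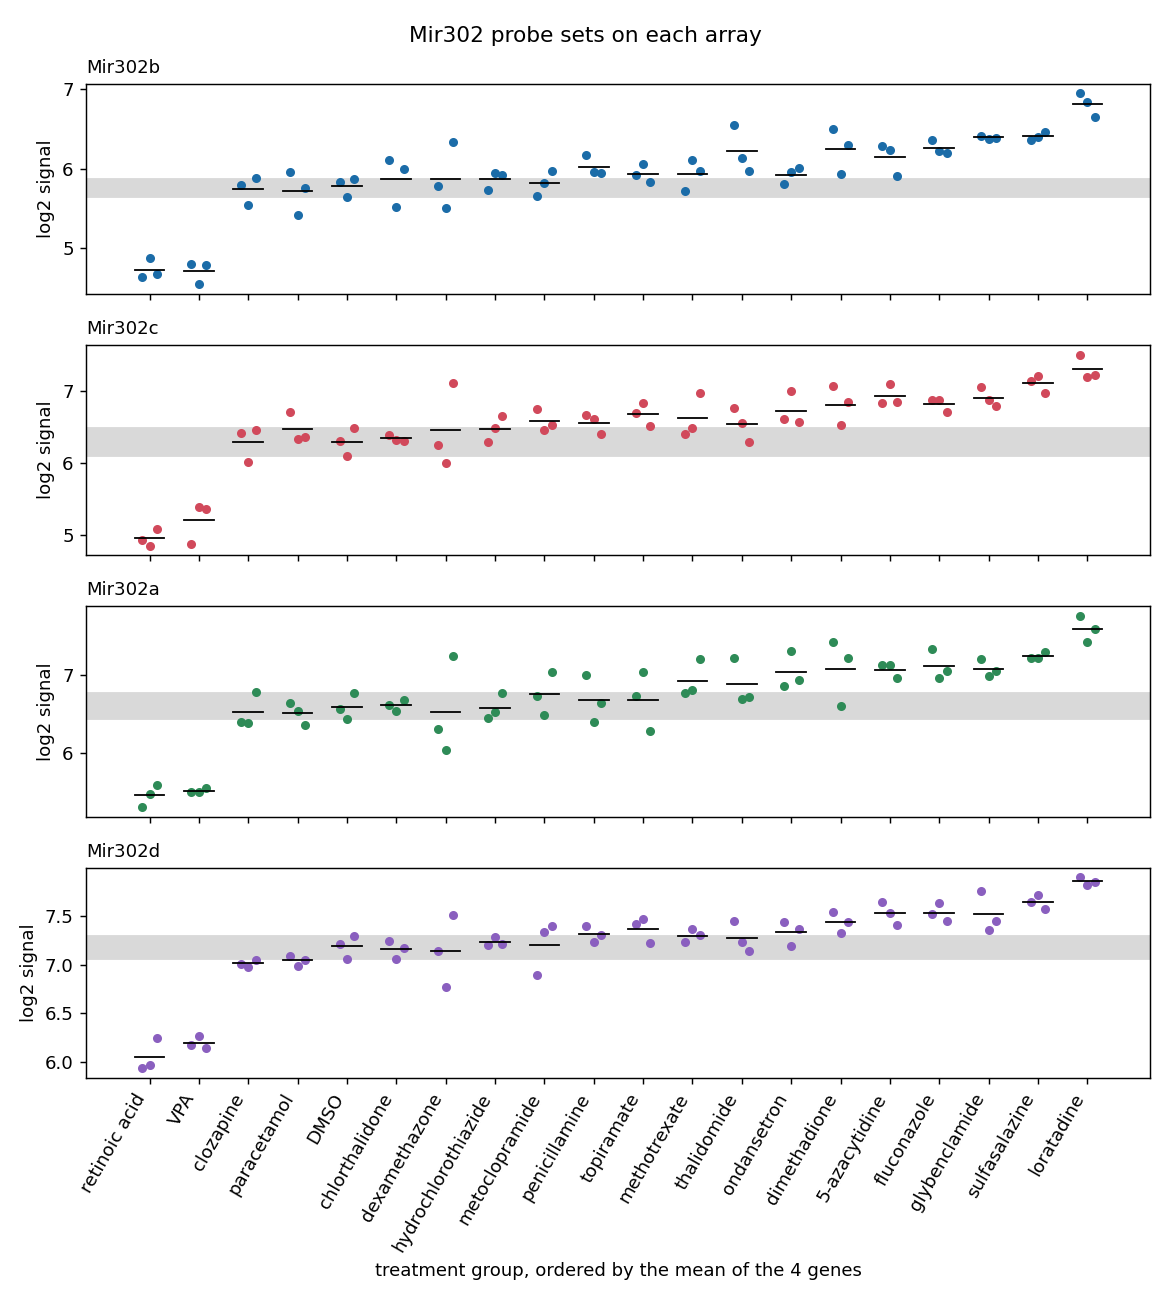
Log2 signal of each Mir302 probe set on each of the 60 arrays, by group; points are arrays, short lines are group means, and the grey band is the range of the 3 DMSO arrays. The retinoic acid and VPA arrays lie lowest for each gene, the loratadine arrays lie highest or nearly so, and Dexamethazone shows the widest spread.

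Loratadine, an antihistamine, stood at the other end. Mir302b had signals of 6.94, 6.84 and 6.65 and Mir302c had 7.51, 7.20 and 7.22. Mir302a had 7.75, 7.42 and 7.58 and Mir302d had 7.90, 7.82 and 7.85. Each of these arrays lay above each DMSO array. The differences to DMSO were 1.03 ± 0.152 (SE) for Mir302b, 1.02 ± 0.175 for Mir302c, 1.00 ± 0.196 for Mir302a and 0.67 ± 0.114 for Mir302d, or folds of 1.59 (Mir302d) to 2.04 (Mir302b). Mir302d changed by the smallest amount of the 4 with loratadine, sulfasalazine and Glybenclamide, a difference between members that was not tested.

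Sulfasalazine, an anti-inflammatory drug of the bowel, and Glybenclamide, a blocker of the potassium channel of beta cells, also gave higher signals. With sulfasalazine Mir302b had signals of 6.36, 6.40 and 6.46 and Mir302c had 7.15, 7.21 and 6.97. Mir302a had 7.21, 7.21 and 7.29 and Mir302d had 7.64, 7.71 and 7.57. All of them lay above DMSO, by 0.63, 0.81, 0.65 and 0.45 on average for Mir302b, Mir302c, Mir302a and Mir302d. With Glybenclamide Mir302b had 6.41, 6.38 and 6.39 and Mir302c had 7.05, 6.87 and 6.79. Mir302a had 7.20, 6.98 and 7.04 and Mir302d had 7.76, 7.36 and 7.45. These arrays too lay above all DMSO arrays for each member, by 0.61, 0.61, 0.49 and 0.33 in the same order.

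For the other groups, means ± SD of 3 arrays are given for Mir302b, Mir302c, Mir302a and Mir302d in that order. Fluconazole, an antifungal, gave 6.26 ± 0.086, 6.82 ± 0.101, 7.11 ± 0.191 and 7.53 ± 0.097. The DNA methyltransferase inhibitor 5-azacytidine gave 6.14 ± 0.202, 6.93 ± 0.150, 7.07 ± 0.097 and 7.53 ± 0.115. All arrays of both lay above DMSO for every member. Dimethadione, an anticonvulsant, gave 6.24 ± 0.288, 6.81 ± 0.272, 7.07 ± 0.426 and 7.44 ± 0.105, wholly above DMSO except for Mir302a. Ondansetron, an antiemetic, gave 5.92 ± 0.107, 6.73 ± 0.236, 7.03 ± 0.238 and 7.33 ± 0.131, wholly above DMSO for Mir302c and Mir302a. Thalidomide, a sedative known for limb defects, gave 6.22 ± 0.294, 6.54 ± 0.232, 6.87 ± 0.297 and 7.28 ± 0.155, wholly above for Mir302b only. Penicillamine, a copper chelator, was wholly above for Mir302b only as well, at 6.02 ± 0.125, 6.56 ± 0.143, 6.68 ± 0.301 and 7.31 ± 0.080. Topiramate, an antiepileptic, was wholly above for Mir302c only, at 5.94 ± 0.113, 6.68 ± 0.160, 6.68 ± 0.378 and 7.37 ± 0.129.

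The remaining groups had no member wholly above DMSO. Methotrexate, a folate antagonist, gave 5.93 ± 0.199, 6.62 ± 0.305, 6.92 ± 0.241 and 7.30 ± 0.068 in the same order. Metoclopramide, a dopamine antagonist, gave 5.82 ± 0.157, 6.58 ± 0.151, 6.75 ± 0.274 and 7.21 ± 0.271. The diuretics overlapped DMSO throughout, hydrochlorothiazide with 5.86 ± 0.112, 6.47 ± 0.183, 6.57 ± 0.167 and 7.23 ± 0.044 and chlorthalidone with 5.87 ± 0.314, 6.34 ± 0.041, 6.61 ± 0.072 and 7.16 ± 0.093. Dexamethazone, a glucocorticoid, had the widest SDs, at 5.87 ± 0.421, 6.45 ± 0.585, 6.53 ± 0.635 and 7.14 ± 0.372. Paracetamol, an analgesic, gave 5.71 ± 0.272, 6.47 ± 0.207, 6.50 ± 0.145 and 7.04 ± 0.052. Clozapine, an antipsychotic, gave 5.74 ± 0.172, 6.30 ± 0.241, 6.52 ± 0.225 and 7.01 ± 0.035, and its Mir302d arrays lay below all DMSO arrays.

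Over the 19 compounds there were 76 pairs of a member and a compound. In 28 of them all 3 compound arrays lay above all DMSO arrays and in 9 all lay below. The 9 were the 8 of retinoic acid and VPA and Mir302d with clozapine. Over all probe sets 13.5% lay wholly below DMSO with retinoic acid and 19.6% with VPA, and 19.1% lay wholly above with loratadine, 19.6% with sulfasalazine and 16.6% with Glybenclamide. With fluconazole 5.87% of all probe sets lay wholly above DMSO and with 5-azacytidine 8.13%, the other compounds with all 4 members there. With fewer members above, the share was 9.78% for dimethadione, 12.3% for ondansetron, 6.94% for thalidomide, 6.10% for penicillamine and 8.43% for topiramate, and 7.07% lay wholly below with clozapine.

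In the model of all genes (limma with Benjamini-Hochberg adjustment), a probe set counts as called at an adjusted p under 0.05. By that rule 18 of the 76 pairs were called, 8 down and 10 up. Retinoic acid had 4 down, where 3.92% of all probe sets were called down, and VPA had 4 down against 11.0%. Loratadine had 4 up against 10.9%, sulfasalazine 4 up against 5.40% and Glybenclamide 2 up, Mir302b and Mir302c, against 6.79%. These counts use the contrast by which the members were proposed and nothing is read from them. None of the other 14 compounds had a member called. Of all probe sets 8.76% were called in either direction with paracetamol, 6.25% with Dexamethazone, 2.58% with chlorthalidone, 2.17% with hydrochlorothiazide, 1.31% with clozapine, 0.330% with ondansetron, 0.197% with metoclopramide and 0.119% with dimethadione, and 0% with the remaining 6. Among their 56 pairs the differences ran from -0.18 to 0.63 and 46 were above 0.

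**Figure D2:**
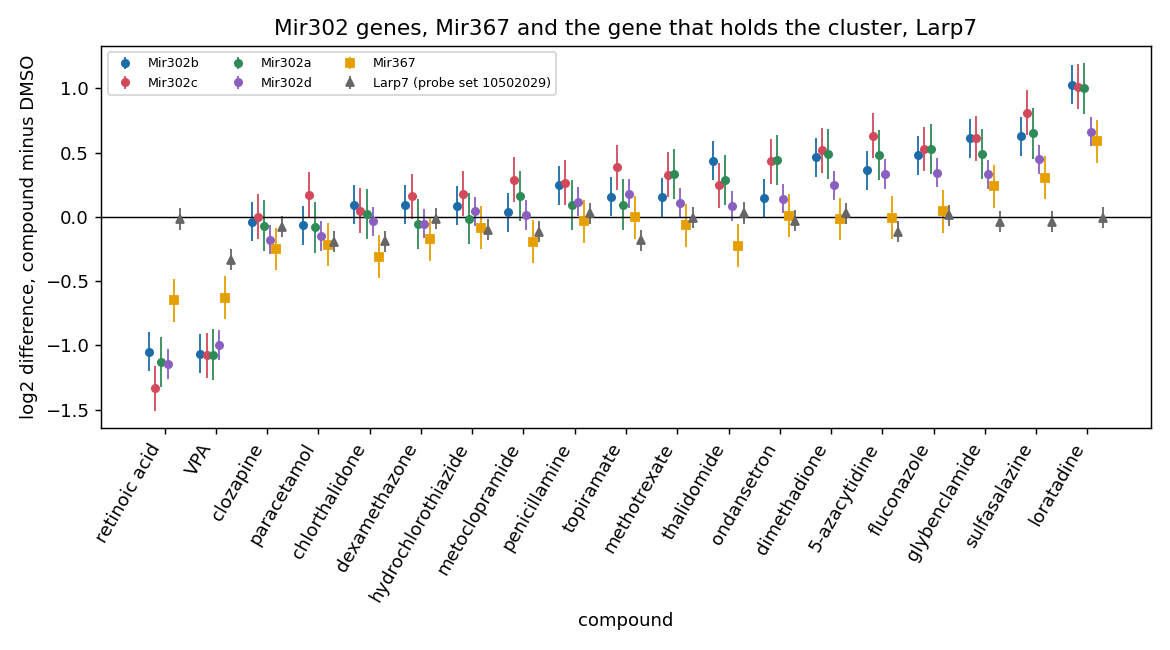
Log2 difference to DMSO of each Mir302 gene for the 19 compounds, together with Mir367 and 1 probe set of Larp7; bars are the SE of the model of all arrays and compounds are ordered by the mean of the 4 Mir302 genes. The Mir302 genes lie between -1.33 and -0.996 with retinoic acid and VPA and between 0.67 and 1.03 with loratadine, Mir367, read close to the bottom of the scale, lies on the same side in these 3 groups. Larp7 lies between -0.33 (VPA) and 0.03.

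The 20 groups were ordered by the mean of the 4 members' log2 signals. Retinoic acid was lowest at -1.16 relative to DMSO and VPA next at -1.05, and their arrays overlapped. A step followed with no overlap up to clozapine at -0.07 and paracetamol at -0.03. Then came DMSO, chlorthalidone (0.03), Dexamethazone (0.04), hydrochlorothiazide (0.07), metoclopramide (0.13), penicillamine (0.18), topiramate (0.21), methotrexate (0.23), thalidomide (0.27) and ondansetron (0.29). Above them stood dimethadione (0.43), 5-azacytidine (0.45), fluconazole (0.47), Glybenclamide (0.51) and sulfasalazine (0.64). Loratadine was highest at 0.93. Each group from clozapine to sulfasalazine overlapped its next neighbour, so no single step in that run exceeds the spread of the arrays, although groups at its ends, such as clozapine and sulfasalazine, did not overlap. Loratadine had no overlap with sulfasalazine. DMSO thus had rank 5 from the lowest of the 20 groups with all arrays. The place of Dexamethazone above DMSO includes its replicate 3. For this mean its arrays ran from 6.07 to 7.05, replicate 3 being highest, against 6.30 to 6.60 in DMSO. No order without that array was made.

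A contrast whose means use neither the DMSO nor the retinoic acid arrays set each of the other 18 compounds against the mean of the remaining 17 compounds. Its estimate of the spread came from the model of all 60 arrays, and in a model of the 54 arrays of these compounds alone the same 15 pairs of a member and a compound were called. It asks whether a compound moved the cluster against the rest of the panel. VPA lowered all 4 members, in a contrast where 15.4% of all probe sets were called down. Each VPA array lay below each of the 51 arrays of the other compounds for every member. Mir302b averaged 4.71 with VPA and 6.07 in the others, a log2 difference of -1.35 ± 0.111 (SE; adjusted p = 1.97e-14, limma with Benjamini-Hochberg adjustment over all probe sets). The differences were -1.47 ± 0.127 for Mir302c (1.17e-13), -1.36 ± 0.143 for Mir302a (4.34e-11) and -1.15 ± 0.083 for Mir302d (2.76e-16). VPA thus left 0.391, 0.361, 0.391 and 0.450 of the signal in the other compounds, where the Mir302b value carries the limit of its low signals with VPA.

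Loratadine raised all 4 members in the same test, where 12.5% of all probe sets were called up. Mir302b was higher by 0.86 ± 0.111 (SE; adjusted p = 3.25e-08, limma), a fold of 1.82. Mir302c was higher by 0.75 ± 0.127 (1.06e-05), Mir302a by 0.84 ± 0.143 (1.16e-05) and Mir302d by 0.61 ± 0.083 (1.36e-07). All 3 loratadine arrays lay above all 51 others for Mir302b, Mir302a and Mir302d, and 2 of 3 did for Mir302c. With the letter b as a covariate all 4 loratadine calls held, at differences of 0.81, 0.72, 0.77 and 0.59 for Mir302b, Mir302c, Mir302a and Mir302d. The calls of VPA and loratadine, 8 in all, held under every alternative setting run that gives a value for the members. They also held without any single array of the compounds in this contrast. Single DMSO and retinoic acid arrays were not left out here.

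Sulfasalazine had all 4 members called up (8.04% of all probe sets), by 0.44 (adjusted p = 0.00709, limma), 0.53 (0.00464), 0.47 (0.0241) and 0.38 (0.00216) for Mir302b, Mir302c, Mir302a and Mir302d. Its arrays had wide interquartile ranges of signals, 3.30 to 3.31, against 3.11 to 3.23 in DMSO and up to 3.31 in the whole series. With that range as a covariate the differences were 0.28 (adjusted p = 0.289), 0.36 (0.213), 0.28 (0.464) and 0.33 (0.0603), and none was called. Glybenclamide had Mir302b (0.42, adjusted p = 0.00877) and Mir302d (0.25, adjusted p = 0.0399) called up, where 6.81% of all probe sets were. The Mir302d call was lost once the spread of each array was a covariate (adjusted p = 0.103), with all probe sets of the table tested (0.0671) and without VPA in the reference (0.15). Without Glybenclamide replicate 1 or replicate 3 neither gene was called. Paracetamol had Mir302d called down (-0.25, adjusted p = 0.0287; 8.21% of all probe sets), a call lost without any one of its 3 arrays.

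In all, 15 of 72 pairs were called, 10 up and 5 down. The other 13 compounds had none, with differences of -0.32 to 0.34 and a lowest adjusted p of 0.0647 (limma). Of their 52 pairs 13 had an unadjusted p under 0.05. The share of all probe sets under that unadjusted threshold was not taken, so nothing is read from those 13. The share of all probe sets called in either direction was 37.9% for hydrochlorothiazide, 33.2% for Dexamethazone, 13.4% for topiramate, 11.4% for penicillamine, 4.34% for chlorthalidone, 2.53% for 5-azacytidine and 1.61% for clozapine. It was 0.427% for metoclopramide, 0.418% each for dimethadione and methotrexate, 0.174% for ondansetron, 0.142% for thalidomide and 0.0138% for fluconazole. The count of 15 called pairs depends on Dexamethazone replicate 3. Dexamethazone had Mir302a signals of 6.31, 6.03 and 7.24 and Mir302c signals of 6.25, 6.00 and 7.11, the last of each being replicate 3. Without that array 24 pairs were called, among them all 4 members down with Dexamethazone, with differences of -0.36 (adjusted p = 0.0348, limma) for Mir302b, -0.49 (0.00815) for Mir302c, -0.64 (0.00309) for Mir302a and -0.34 (0.0077) for Mir302d. With all 3 arrays none of the 4 was called, though Mir302a (-0.36, adjusted p = 0.0447) and Mir302d (-0.22, 0.0369) were called down when VPA was left out of the reference.

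**Figure D3:**
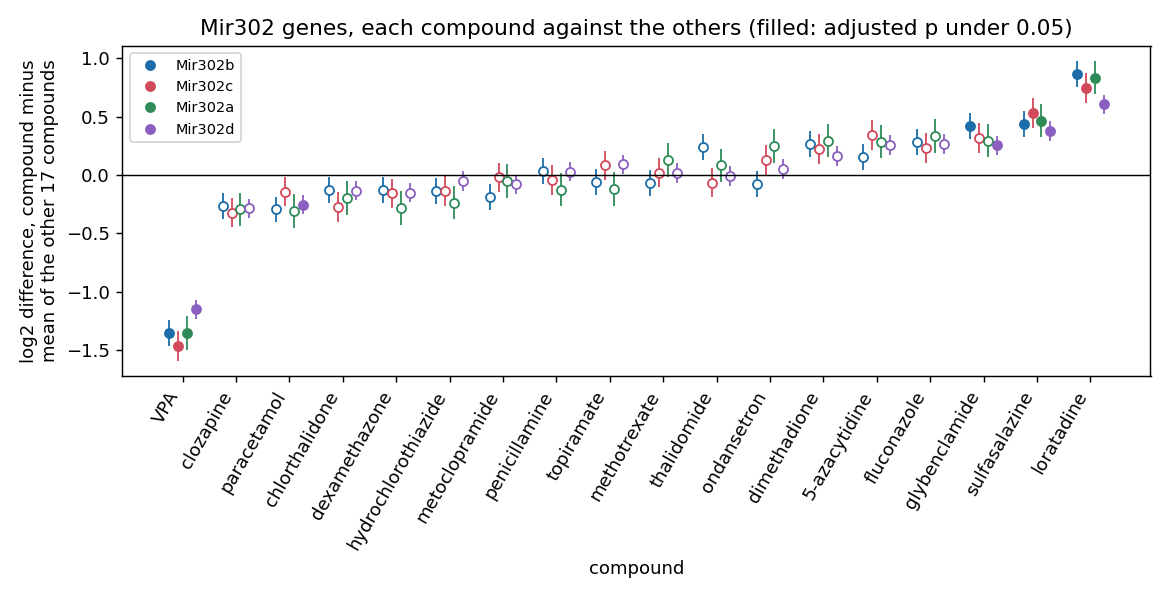
Log2 difference of each Mir302 gene between a compound and the mean of the other 17 compounds, for 18 compounds, with the SE of the model as bars; filled points are called at an adjusted p under 0.05 and open points are not. VPA lies below -1 for all 4 genes and loratadine between 0.61 and 0.86.

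No difference between the classes was called for any member. With 1 mean per compound and retinoic acid left out, the difference of 9 teratogens to 9 non-teratogens was -0.13 ± 0.174 (SE) for Mir302b, -0.18 ± 0.176 for Mir302c, -0.16 ± 0.177 for Mir302a and -0.10 ± 0.142 for Mir302d. The adjusted p-values were 0.912, 0.91, 0.912 and 0.915 (limma). The 95% intervals of the differences were -0.49 to 0.23, -0.54 to 0.19, -0.53 to 0.21 and -0.40 to 0.19, each of which spans 0. Over all probe sets limma called 0 at an adjusted p under 0.05, and 1012 (4.64%) had an unadjusted p under 0.05.

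Mir367, downstream of Mir302d on the same transcript, differed from DMSO with retinoic acid, VPA and loratadine in the same directions as the members. It had signals of 4.86, 4.55 and 4.61 in DMSO, 4.01, 4.18 and 3.88 with retinoic acid, 4.11, 3.79 and 4.24 with VPA, and 5.56, 5.08 and 5.14 with loratadine. No array of these compounds overlapped DMSO. With retinoic acid it differed by -0.65 ± 0.167 (SE). That value is a description, because the members of this transcript were chosen on the same arrays. Mir367 was called down with VPA (-0.63 ± 0.167, adjusted p = 0.00298, limma) and up with loratadine (0.59 ± 0.167, 0.00913), against the same DMSO arrays. With sulfasalazine it differed by 0.30 (adjusted p = 0.227) and with Glybenclamide by 0.24 (0.387), and it was not called. With fluconazole, 5-azacytidine and dimethadione it differed by 0.04, -0.005 and -0.02, where the mean of the members was 0.43 to 0.47 above DMSO. Its level, at percentile 3.37 of the probe sets tested, lay near that of Lum at the bottom of the scale, where log2 differences can be compressed, so its sizes are not set against those of the members. Its group means had a Pearson r of 0.912 with those of the 4 members over 20 groups, and of 0.884 over 18 groups without retinoic acid and VPA. Pairs of members had r of 0.965 to 0.990 over 20 groups. These are descriptions over groups that share arrays and normalisation.

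Larp7, the gene around the cluster on the opposite strand, was read by a pair of probe sets. Probe set 10502029 fell with VPA by 0.33 on the log2 scale (adjusted p = 0.00123, limma), and probe set 10514383 differed by -0.25 (adjusted p = 0.0846). With retinoic acid the differences were -0.02 (adjusted p = 0.929) and 0.10 (0.598), and with loratadine -0.01 (0.958) and 0.03 (0.862). Larp7 was thus called with VPA and not with retinoic acid or loratadine, a contrast between compounds that was not itself tested. With chlorthalidone, topiramate and paracetamol all 3 arrays of probe set 10502029 lay below DMSO as well, at -0.19, -0.18 and -0.19, without a call. Its group means and those of probe set 10514383 had r of 0.454 and 0.282 with those of the members over 20 groups, and of 0.683 and 0.528 over 19 groups without retinoic acid. Over 18 groups without retinoic acid and VPA the values were 0.379 and 0.272.

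Relatives by seed were read by 7 probe sets, of microRNAs with the shifted seed AAAGUGC and of Mir17hg. None of these relatives has the seed AAGUGCU itself. The counts below are of probe sets at an adjusted p under 0.05 against DMSO. With retinoic acid none of the 7 was called by limma, 0 of them had an unadjusted p under 0.05, and their median difference was 0.03, against -0.03 over all probe sets. With VPA 3 fell, all of the Mir17 cluster, which is known for promoting proliferation. Mir17hg, the host transcript, had signals of 7.74, 7.90 and 8.11 in DMSO and 7.34, 7.09 and 7.17 with VPA, with no overlap. It fell by 0.72 ± 0.134 (SE; adjusted p = 2.97e-05, limma), Mir20a by 0.66 ± 0.147 (0.00037) and Mir17 by 0.43 ± 0.127 (0.00805). The median of the 7 was -0.32 with VPA, against -0.01 over all probe sets. With loratadine 1 of 7 was called, Mir106a, named here after its value was seen, whose signals were 6.09, 5.86 and 6.29 in DMSO and 6.56, 6.74 and 6.62 with loratadine (0.56 ± 0.140, adjusted p = 0.00273).

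**Figure D4:**
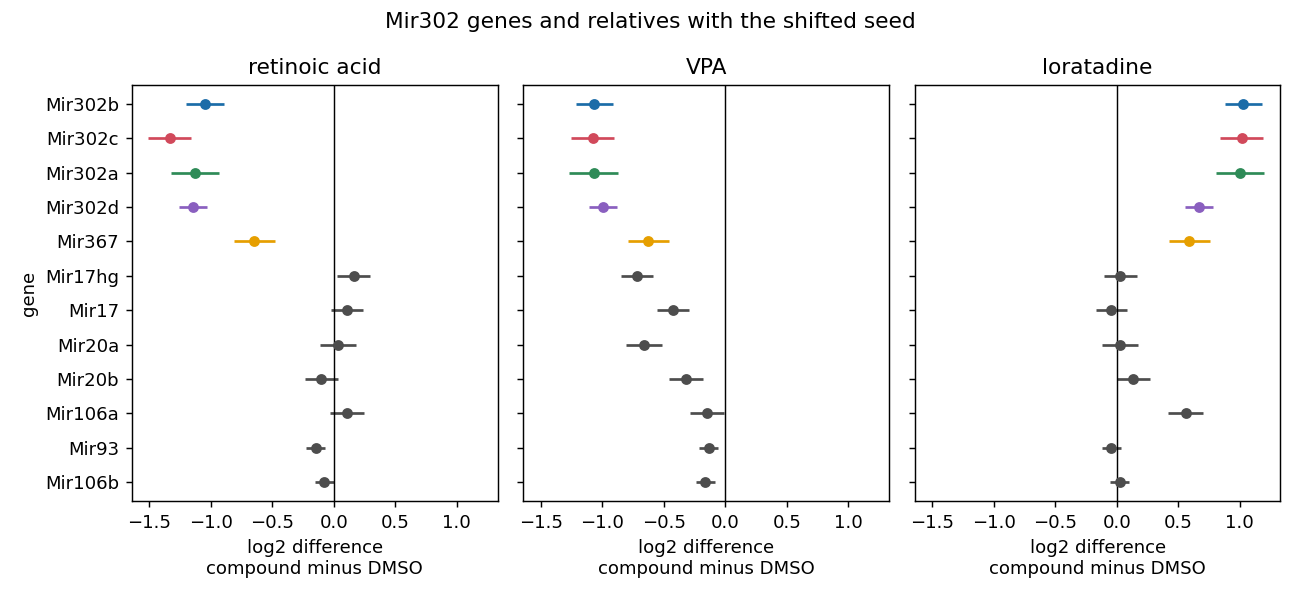
Log2 difference to DMSO of the Mir302 genes, Mir367 and the microRNA genes with a shifted seed, for retinoic acid, VPA and loratadine, with the SE of the model as bars. The Mir302 genes and Mir367 are low with retinoic acid and VPA, whereas Mir17hg (-0.72) and Mir20a (-0.66) are low with VPA and were not called with retinoic acid.

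All microRNA genes outside the Mir302 members were read by 292 probe sets, which include Mir367 and seed relatives described above. Leaving those out, 284 remained, of which 26 fell and 2 rose with retinoic acid, Mir377 (-0.75) and Mir300 (-0.69) having the largest falls. Most of the 26, Mir377 and Mir300 among them, were read by probe sets numbered from 10398332 to 10398438, a single run of neighbouring numbers. Whether these genes lie together was not examined, and the falls are not read as spread over the genome. With VPA 17 of the 284 fell and none rose, and with loratadine 18 fell and 15 rose. The median difference of the 292 with retinoic acid was -0.09. The share of all probe sets called down was 3.92% with retinoic acid, 11.0% with VPA and 8.26% with loratadine. The median signal of the 292 probe sets lay between 6.19 and 6.27 on the retinoic acid arrays and between 6.21 and 6.25 on the VPA arrays, against 6.23 to 6.41 in DMSO. It was 6.25 to 6.31 with loratadine. The part of that shift in the Mir302 values was not tested.

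The genes of microRNA processing were read by 20 probe sets of 17 genes. With retinoic acid 1 rose and 2 fell: Tut4, which adds uridines to let-7 precursors (0.24), and the Argonautes Ago4 (-0.26) and Ago1 (-0.20). The retinoic acid list median was 0.04. With VPA 3 rose and 10 fell, and the median was -0.19. Prkra, a partner of Dicer1, rose by 0.47, while Lin28a, the let-7 blocker, fell by 0.35, Tarbp2, another Dicer1 partner, by 0.35 and Dgcr8, the partner of Drosha, by 0.34. With loratadine 4 rose and 4 fell, Dgcr8 among those that fell (-0.33), and the median was -0.11. Over all probe sets 5.90% rose with retinoic acid, 15.5% with VPA and 10.9% with loratadine.

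The factors reported to act on the cluster, 7 probe sets, are transcription factors and Ctnnb1, the transcriptional arm of Wnt signalling. With retinoic acid 1 of 7 was called: Nanog rose by 0.18 ± 0.053 (SE; adjusted p = 0.026, limma). Pou5f1 differed by -0.11 (adjusted p = 0.482) and Sox2 by -0.11 (0.0974). With VPA 5 of 7 fell, Nanog by 0.68, the stem cell factor Zfp42 by 0.52 and Tcf7l1, a Wnt pathway repressor, by 0.32 among them. With loratadine none was called by limma, and 3 had an unadjusted p under 0.05. The list medians were -0.10, -0.22 and -0.07 for retinoic acid, VPA and loratadine.

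Genes reported as targets of the seed were read by 19 probe sets. Lefty1 and Lefty2, secreted inhibitors of Nodal, are among the best known. Lefty1 had signals of 9.26, 9.32 and 9.39 in DMSO, 9.84, 9.55 and 9.66 with retinoic acid, 8.76, 8.80 and 8.88 with VPA and 8.56, 8.50 and 8.59 with loratadine. It rose with retinoic acid (0.36, adjusted p = 0.00409, limma) and fell with VPA (-0.51, 8.74e-06) and loratadine (-0.77, 3.02e-09), so Lefty1 was lower both with VPA, where Mir302 was low, and with loratadine, where it was high. Lefty2 fell with all 3, by 0.34 (adjusted p = 0.00462), 0.51 (5.84e-06) and 0.58 (9.28e-07). Ei24, an apoptosis gene, rose with retinoic acid (0.34), and Slain1, a microtubule gene, rose with VPA (0.47). In counts, 2 rose and 2 fell with retinoic acid, 3 rose and 6 fell with VPA and 2 rose and 4 fell with loratadine. The list medians, 0.05, 0.01 and 0.01, lay within 0.1 of those over all probe sets, -0.03, -0.01 and -0.04.

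The epiblast list, 10 probe sets, holds genes that mark the stage at which the cluster is known to be more abundant. With retinoic acid 5 fell and 2 rose, Foxd3 (-1.04) and Fgf5 (-1.01) among those that fell. The transcription factor Otx2 had signals of 10.34, 10.30 and 10.47 in DMSO and 8.82, 8.51 and 8.61 with retinoic acid, and 10.10, 10.12 and 10.22 with loratadine. With VPA 6 fell and none rose, among them Zic2, a neural plate factor (-1.32), Foxd3 (-1.22) and the growth factor gene Fgf5 (-0.97). With loratadine 6 of 10 fell and none rose, Foxd3 at -0.67 among them, while Mir302 was higher. The cluster and 6 epiblast genes were thus lower together with VPA. On the retinoic acid arrays the cluster and 5 of the 10 were lower, while 2 were higher. Loratadine had 6 lower and the cluster higher. How these genes relate to the Mir302 values was not tested. Of the 10, 8 fell with paracetamol, 5 with chlorthalidone and 4 with Dexamethazone, where the members' mean differed from DMSO by -0.03, 0.03 and 0.04. The Dexamethazone value includes replicate 3, without which all 4 members were called down against the other compounds. With Glybenclamide 3 fell and with sulfasalazine 2, while Mir302 was higher. Over all probe sets 3.92% were called down with retinoic acid, 11.0% with VPA, 8.26% with loratadine, 4.15% with paracetamol, 1.14% with chlorthalidone and 4.74% with Dexamethazone. That share was 2.75% with Glybenclamide and 3.50% with sulfasalazine.

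Markers of other cells were read beside these results. The summed signal of 10 stem cell markers, as log2, was 15.79 to 15.80 in DMSO, 15.73 to 15.80 with retinoic acid, 15.56 to 15.59 with VPA and 15.81 to 15.84 with loratadine. Of these markers 6 fell with VPA, 1 rose with retinoic acid and 2 rose with loratadine. The summed feeder fibroblast signal was 11.95 to 12.01 in DMSO, 11.88 to 12.02 with retinoic acid, 11.89 to 11.95 with VPA and 11.89 to 12.00 with loratadine. In the differentiated cell list, 8 probe sets, 2 rose and 2 fell with retinoic acid, where Gata6, an endoderm factor, rose by 0.87 and Pax6, a neural factor, by 0.52, while the neural genes Neurod1 and Sox1 fell by 0.53 and 0.26. Its summed signal was 11.23 to 11.27 with retinoic acid and 11.20 to 11.26 in DMSO, lower at 11.08 to 11.13 with VPA and 11.01 to 11.03 with loratadine. In these bulk samples fewer cells of a type and less RNA per cell cannot be told apart, and the part of these markers in the Mir302 values was not tested.

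The replicate spread of the cluster was wide. The pooled SD within groups was 0.199 for Mir302b, 0.229 for Mir302c, 0.259 for Mir302a and 0.146 for Mir302d. These lie at percentiles 99, 99.6, 99.8 and 93.4 of all probe sets tested, whose median SD was 0.097. The other microRNA probe sets had a median SD of 0.129 with all arrays. Without Dexamethazone replicate 3 the members had SDs of 0.180, 0.193, 0.221 and 0.129 in the same order. Their percentiles were then 98.6, 99.1, 99.6 and 87.5, and the median SD over all probe sets was 0.093. The members deviated from their group means together, with r between pairs of 0.52 to 0.78 over 60 arrays, and of 0.33 to 0.69 without Dexamethazone replicate 3. Their deviations had r of 0.28 to 0.39 with those of Mir367 and of 0.31 to 0.66 with those of the Larp7 probe sets, or 0.34 to 0.48 and 0.08 to 0.54 without that array.

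The members' deviations also followed the interquartile range of the array, a measure of how spread out its signals are. Their r with it was 0.38, 0.37, 0.34 and 0.18 for Mir302b, Mir302c, Mir302a and Mir302d, and 0.58, 0.65, 0.59 and 0.36 without Dexamethazone replicate 3. These values describe arrays that share a normalisation, and no p is given.

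**Figure D5:**
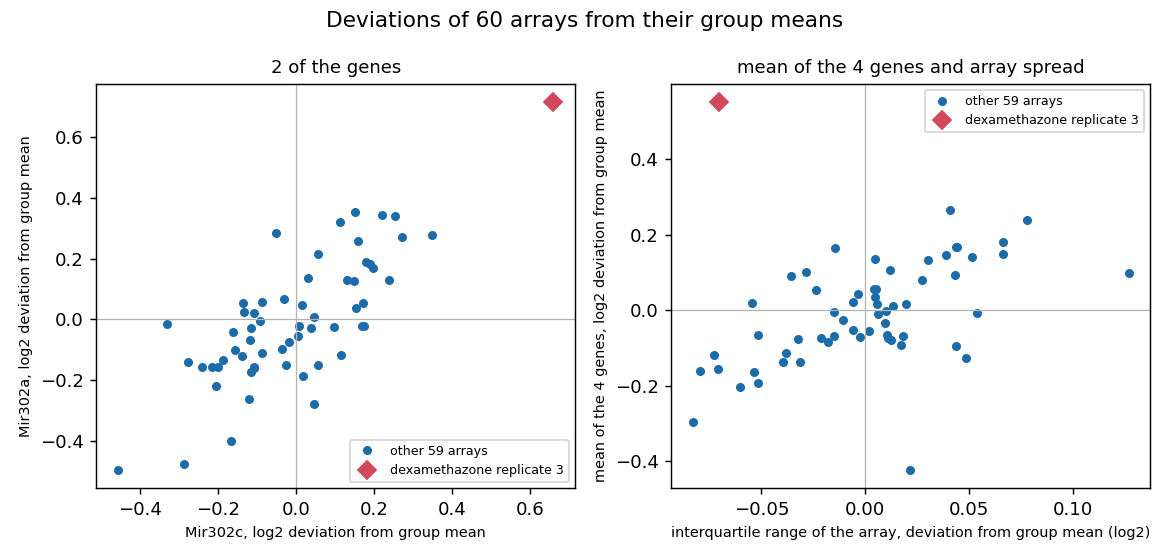
Deviations of 60 arrays from their group means, in log2 units: Mir302a against Mir302c on the left, and the mean of the 4 Mir302 genes against the interquartile range of the array on the right; each point is an array. The genes rise and fall together, and Dexamethazone replicate 3, the diamond, lies farthest above its group in both panels while its interquartile range is below its group mean.

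Over the 20 group means, the 8 genes most like the mean of the members by Pearson r were Tex264 (0.930), a receptor for autophagy of the endoplasmic reticulum, Pde1b (0.897), a phosphodiesterase, Gid8 (0.884), Tgif1 (0.872), a homeobox repressor, Slc29a1 (0.859), a nucleoside transporter, Pmf1 (0.858), Gpa33 (0.848) and Cav1 (0.834), a caveolin. They moved less than the cluster did: Tex264 differed from DMSO by -0.18 with retinoic acid, -0.19 with VPA and 0.12 with loratadine. Without retinoic acid the leading 8 over 19 groups were Nop53 (0.923), Mpdu1 (0.910), Gmeb2 (0.908), Accsl (0.907), Zfp266, Nop56, Dhx30 and Tex264 (0.896), 1 of them shared. Without retinoic acid and VPA none of the first 8 remained among the leading 8. The names found by likeness thus depend on those groups.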

How the data were processed

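Per the submitters' processing notes, the authors deposited log2 signals made with RMA. Neither its options nor its version is stated there. The signals were used without further normalisation. Probe sets were named from the platform annotation. Of 35556, 21789 had 1 symbol and were tested, 1621 had several and 12146 had none. A linear model with a mean per group was fitted to all 60 arrays (limma 3.58.1, R 4.3.3, 40 residual and 7.31 prior degrees of freedom), with Benjamini-Hochberg adjustment within each contrast over all probe sets tested. Class contrasts used 1 mean per compound. No pair of arrays was identical (lowest root mean square difference 0.101). The script was tested on simulated data.

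The members and lists were chosen with earlier results of these data known. The text names all members, Mir367 and Larp7, and the leading 8 genes by likeness. Of each list it names up to 3 called probe sets with the largest change with retinoic acid and up to 3 with VPA. The same genes' values and the list counts with other compounds were added after values were seen. So were Pou5f1 and Sox2 as factors, Dgcr8, Mir106a, Mir363, Mir130a and the differentiated cell markers. The feeder markers Col1a2, Thy1, S100a4, Dcn, Postn, Col3a1 and Twist2 were added then too. Alternatives were quantile normalisation, all probe sets, models of 6 arrays, the interquartile range as covariate, other references and leaving out single arrays. Sequences are from RefSeq, GRCm38.p6.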

Additional observations from a re-analysis of the deposited data

How the results depend on the processing

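The calls of VPA and loratadine against the other compounds, 8 of 8, kept their direction and side of the threshold under all settings run. Leaving out 1 array gave 13 to 20 of 76 pairs called against DMSO. Against the other compounds, leaving out 1 of their 54 arrays gave 11 to 24 of 72, 24 without Dexamethazone replicate 3. The mean of the 4 members differed from DMSO by -1.24 to -1.09 for retinoic acid, -1.13 to -0.98 for VPA, 0.85 to 1.00 for loratadine, 0.56 to 0.71 for sulfasalazine and 0.43 to 0.58 for Glybenclamide. Called list probe sets, of 65, were 10 to 15 for retinoic acid (16 with all arrays, 10 without DMSO replicate 1, DMSO replicate 2 or retinoic acid replicate 1), 33 to 37 for VPA (37) and 18 to 22 for loratadine (22). The class contrast called 0 members in every setting. The median SD of the 4 members was 0.187 without Dexamethazone replicate 3; the spread without that array, the likeness without retinoic acid and VPA, and the reference without VPA were chosen after seeing the data. Without VPA in the reference, 4 calls were gained, Mir302d with clozapine (-0.35, adjusted p = 0.0118, limma), Mir302b with paracetamol (-0.38, 0.0126) and Mir302a and Mir302d with Dexamethazone (-0.36, 0.0447, and -0.22, 0.0369), and sulfasalazine's Mir302a (0.0558) and Glybenclamide's Mir302d (0.15) were lost. The model of 54 arrays, also chosen after seeing the data, called 15 pairs. Leaving out probe sets with low means gives no value for the members, which lie below the median level of 8.09. The planned permutation test of the class on the members' mean was not run, since no p is given for a score over members. No paired analysis was possible because the labels give no replicate numbers shared between groups.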

Other observations

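Other microRNA genes moved with the same compounds; Mir363 and Mir130a are named here after their values were seen. With VPA the neighbours of Mir17 in its cluster fell as well: Mir18 by 1.06 ± 0.111 (SE; adjusted p = 8.43e-11, limma with Benjamini-Hochberg adjustment, 3 arrays per group), Mir19a by 1.00 ± 0.141 (1.43e-07) and Mir19b-1 by 0.83 ± 0.145 (9.3e-06). Mir363, of the related cluster on the X chromosome that also holds Mir106a, fell with VPA (-0.80 ± 0.142, adjusted p = 1.47e-05) and rose with loratadine (0.71 ± 0.142, 0.000217). Mir130a had the same pair of directions, at -0.45 ± 0.134 with VPA (adjusted p = 0.00788) and 0.82 ± 0.134 with loratadine (7.59e-06), but it was higher, not lower, with retinoic acid (0.40 ± 0.134, 0.0498). These comparisons share the DMSO arrays.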
